A study of Mus musculus with 12 samples.

Results

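Heart valve and endocardial cushion genes were described in the heart and lung of Adam19 WT and Adam19 KO mice. The genes were chosen by name, as transcription factors and matrix proteins of cushion and valve formation. All 9 were found among the 55679 genes of the deposited table: Nfatc1, Vcan, Postn, Snai1, Snai2, Twist1, Msx1, Msx2 and Sox9.

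Heart valves grow out of the endocardial cushions, swellings of matrix between the endocardium and the heart muscle of the embryo. BMP and TGF-beta signals from the muscle, together with Notch in the endocardium, make some endocardial cells lose their contacts and move into the matrix, an epithelial-to-mesenchymal transition in which Snai1, Snai2, Twist1, Msx1 and Msx2 act. Nfatc1 marks the endocardial cells that stay behind and is needed for the valve leaflets, while Sox9, Vcan and Postn belong to the mesenchyme that turns the cushions into valves. Adam19, a membrane-bound metalloproteinase, was found to be needed for this process in mouse embryos of other knockout lines, whereas homozygotes of the line used here are viable.

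RNA was sequenced from the whole heart and whole lung of 6 adult male mice of the 129S6/SvEvTac strain, 3 WT and 3 KO, which gave 12 libraries. The KO mice were homozygous for Adam19-tdTomato, a germline allele in which tdTomato and a hygromycin resistance cassette replace exons 6 and 7 of Adam19, so the gene was changed in every cell from conception. The mice were adults that had survived to sampling and no embryo or dissected valve was sequenced, so valve tissue is a small part of each heart library. The WT and KO mice share no prefix of their animal identifiers, and what the prefix stands for is not given, so it cannot be told apart from genotype.

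Values are the authors' normalized abundances on a log2 scale, on which 0 means that no read was assigned, and are called levels here. The libraries held between 17674788 and 35862932 estimated counts. Adam19 itself was at 9.17, 9.25 and 10.27 in the WT hearts against 6.67, 6.01 and 6.56 in the KO hearts, and at 9.14, 9.41 and 9.12 in the WT lungs against 4.44, 3.21 and 3.50 in the KO lungs. No KO library overlapped the WT libraries of its tissue. Heart and lung were told apart by their markers: the summed level per kilobase of 5 cardiomyocyte genes was 586495 to 747522 in hearts and 2874 to 5628 in lungs, and that of 7 lung epithelial genes was 598800 to 891211 in lungs and 95.2 to 2805 in hearts. Lung WT replicate 3 stood apart from the other lungs, with a median absolute difference from its group of 0.38 on the log2 scale against 0.15 to 0.27 in the other 11 libraries. A single small RNA gene, Rn7s1, took between 2.18% and 33.7% of the counts of a lung library.

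None of the valve genes passed the test between KO and WT in either tissue. Between lung and heart in WT mice, 2 of the 8 testable ones were called higher in lung and 2 lower, beside 29.3% and 20.1% of all genes. In KO mice 3 were called higher and 2 lower, beside 28.7% and 20.9%. The test was limma's, and a gene was called when its Benjamini-Hochberg adjusted p over all genes was under 0.05, its fold change was at least 1.5 and its larger group mean was at least 6. A gene was tested if at least 3 libraries had a level of at least 3.46. The share of all genes without overlap between KO and WT was not computed, so a lack of overlap is only described. In the heart, 8 of the 9 genes could be tested and 0 were called, against 0.085% of the 15303 genes tested (13 genes). In the lung, 7 could be tested and 0 were called, against 0.0665% of 16551 genes (11 genes). At an unadjusted p under 0.05 the numbers of valve genes were 0 in the heart and 0 in the lung, where 7.46% and 5.93% of all genes had such a p, and limma-voom also called none. The median log2 fold change was 0.05 over the 8 genes in the heart and 0.41 over the 7 genes in the lung, beside 0.03 and 0.01 over all genes tested. Without lung WT replicate 3 the lung median was 0.13, and with each heart library left out in turn the heart median ranged from -0.05 to 0.19. The difference of the genotype effect between the tissues was called for 0 of 8 valve genes, against 0.00566% of 17666 genes, and their adjusted p lay between 0.635 and 0.968.

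**Figure D1:**
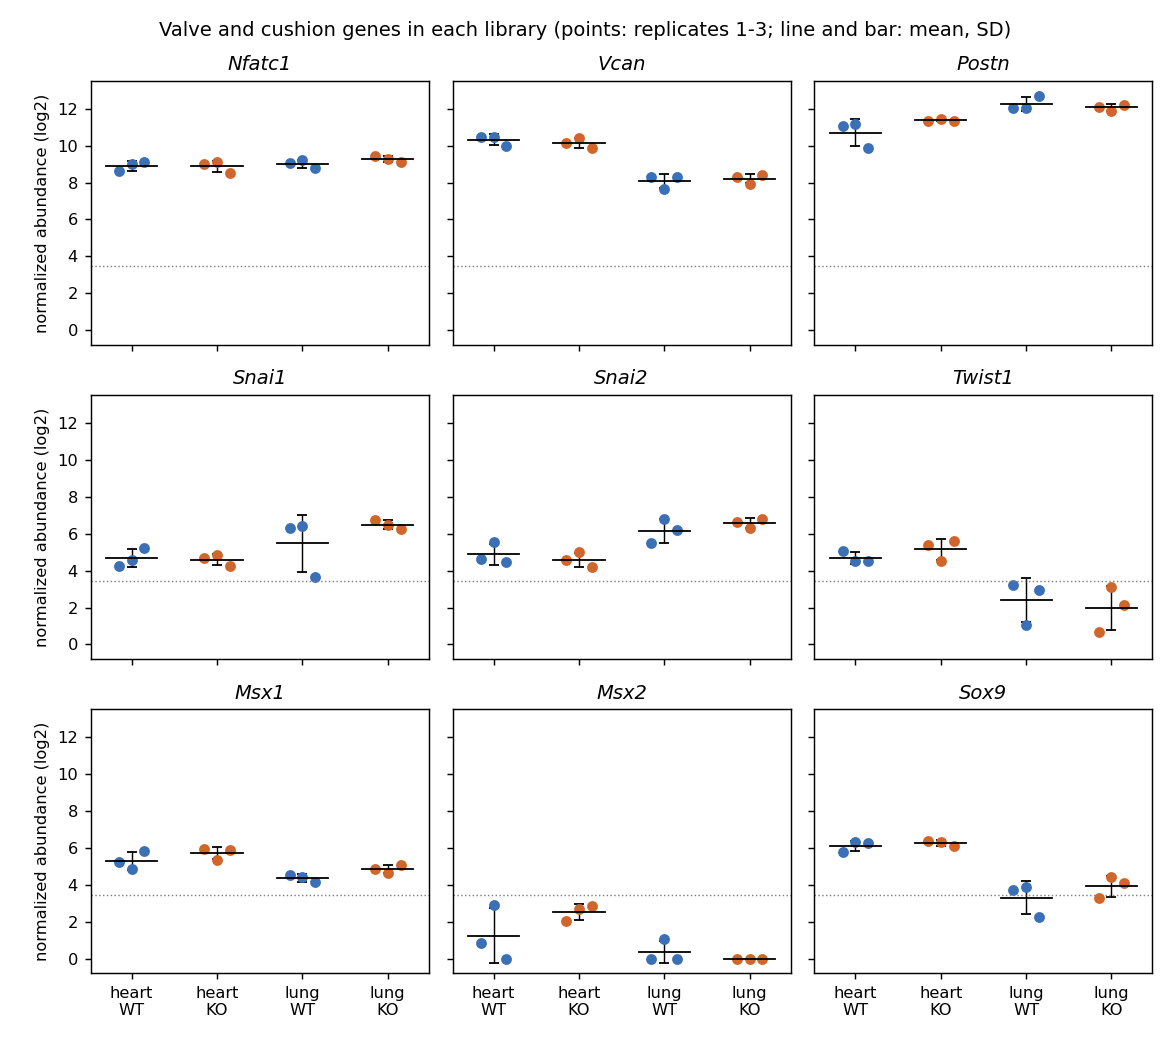
Level (log2 normalized abundance, vertical axis) of the 9 genes in each of the 12 libraries, with replicates 1 to 3 from left to right in each group, WT in blue and KO in orange, the mean as a line and the SD as a bar. The dotted line is the level of 3.46 used as the filter, and Msx2 lies under it in every library while Postn lies at 9.85 or higher in every one.

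The levels covered a wide range. To compare genes, estimated counts were put on the scale of the deposited values and divided by transcript length. Per kilobase, Postn was the most abundant of the 9 in all 4 groups, with 578 ± 241 in WT hearts and 1620 ± 452 in WT lungs (SD, n = 3). In WT hearts Vcan with 142 ± 29.3 and Nfatc1 with 108 ± 19.3 came next, and these neighbours overlapped. Msx1, Sox9, Snai1, Twist1 and Snai2 followed at means of 20.4 down to 12.8, each overlapping the next, and Msx2 was last at 0.893 ± 1.25, below all of them. The KO hearts had the same first 4 genes, and Twist1 came before Sox9, which it overlapped. In WT lungs Nfatc1 with 115 ± 17.6 was the second, and Snai1, Snai2 and Vcan at 36.0, 32.6 and 30.8 overlapped one another in turn. Msx1 at 10.1 came next, and Twist1 and Sox9, at 3.23 and 2.36, overlapped.

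The 9 genes lie on 8 chromosomes of GRCm39, with Msx2 and Vcan both on chromosome 13. The estimated counts behind them differ: 545 to 7746 in a library for Postn, 196 to 1626 for Vcan, 303 to 966 for Nfatc1, and 0 to 6.71 for Msx2. The other 5 genes had between 0.753 and 136 counts in a library, so that counting error weighs more on them.

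Nfatc1 (chromosome 18) encodes a transcription factor that calcineurin brings into the nucleus, and in the heart it is a marker of the endocardium of the valves. Its level was 8.61, 9.01 and 9.13 in WT hearts, 8.99, 9.11 and 8.54 in KO hearts, 9.06, 9.21 and 8.77 in WT lungs and 9.42, 9.27 and 9.11 in KO lungs. All 12 libraries lay within 1 log2 unit, and KO and WT overlapped in both tissues. The difference KO minus WT was -0.04 in the heart (95% interval -0.49 to 0.42, adjusted p = 0.97, limma) and 0.25 in the lung (-0.15 to 0.66, adjusted p = 0.841). Lung minus heart was 0.10 in WT (adjusted p = 0.675, limma) and 0.39 in KO mice (adjusted p = 0.0921). In KO mice the lowest lung (9.113) and the highest heart (9.112) were nearly equal, and the difference was not called.

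Snai1 (chr2:167380113-167384734, forward strand) encodes a zinc finger repressor of cadherin genes. Its level was 4.27, 4.59 and 5.24 in WT hearts, 4.68, 4.83 and 4.24 in KO hearts, 6.31, 6.43 and 3.67 in WT lungs and 6.75, 6.47 and 6.27 in KO lungs. Lung WT replicate 3, the library that stood apart, was below every heart library, while the 5 other lungs were above them all. The KO lungs minus the WT lungs differed by 1.02 (95% interval -0.47 to 2.52, adjusted p = 0.841, limma), and by 0.12 without that library. In the heart the difference was -0.11 (-0.98 to 0.75, adjusted p = 0.952, limma). Snai1 was called higher in lung than heart in KO mice, by 1.91 (0.62 to 3.21, adjusted p = 0.0126, limma). In WT mice it was not called, at 0.77 (-0.52 to 2.07, adjusted p = 0.266, limma), and without lung WT replicate 3 the difference was 1.67 (adjusted p = 0.00107).

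Snai2 (chr16:14523425-14527252, forward strand) encodes the related repressor Slug. Its level was 4.64, 5.52 and 4.47 in WT hearts, 4.55, 4.99 and 4.21 in KO hearts, 5.51, 6.80 and 6.19 in WT lungs and 6.63, 6.29 and 6.79 in KO lungs. KO and WT overlapped in both tissues, with differences of -0.29 in the heart (-1.21 to 0.62, adjusted p = 0.868, limma) and 0.41 in the lung (-0.37 to 1.18, adjusted p = 0.855). The lungs were higher than the hearts in both genotypes. The difference was 1.29 in WT (0.45 to 2.12, adjusted p = 0.0101, limma) and 1.99 in KO mice (1.15 to 2.82, adjusted p = 0.000547). The WT call was lost without lung WT replicate 2 (0.97, adjusted p = 0.0528) and under quantile normalization (0.40, adjusted p = 0.382).

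Twist1 (chr12:34007645-34009828, forward strand) encodes a basic helix-loop-helix factor of mesenchyme. Its level was 5.04, 4.51 and 4.50 in WT hearts, 5.38, 4.52 and 5.59 in KO hearts, 3.23, 1.06 and 2.96 in WT lungs and 0.69, 3.09 and 2.14 in KO lungs. Every lung was below every heart, and no lung reached 3.46, so the genotypes were tested in the heart only. KO hearts minus WT hearts differed by 0.48 (-0.38 to 1.34, adjusted p = 0.779, limma), with overlap. Lung minus heart was -2.27 in WT (adjusted p = 0.00906, limma) and -3.19 in KO mice (adjusted p = 0.000979), but Twist1 did not reach a group mean of 6 and so was not called. Twist1 passed the filter of this comparison only through the hearts, which favours a difference below 0. The counts behind the lung values were 0.753 to 12.2.

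Msx1 and Msx2 encode homeodomain factors that BMP signals switch on in the cushions. Msx1 (chr5:37977829-37981928, reverse strand) was at 5.21, 4.86 and 5.83 in WT hearts, 5.91, 5.36 and 5.87 in KO hearts, 4.53, 4.40 and 4.13 in WT lungs and 4.85, 4.63 and 5.08 in KO lungs. The 3 KO lungs were above the 3 WT lungs with no overlap (exact permutation p = 0.10, the smallest that 3 against 3 allows). The difference of 0.50 did not pass the test (-0.25 to 1.25, adjusted p = 0.841, limma). In the heart the genotypes overlapped and differed by 0.41 (-0.34 to 1.16, adjusted p = 0.782, limma). Lung minus heart was -0.95 in WT (adjusted p = 0.0185, limma) and -0.86 in KO mice (adjusted p = 0.0299), with no overlap in either, and again no group mean reached 6.

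Msx2 (chr13:53620914-53627110, reverse strand) was at 0.86, 2.89 and 0 in WT hearts and 2.02, 2.68 and 2.85 in KO hearts. In the lungs it was listed at 0 in 5 of 6 libraries and at 1.04 in WT replicate 2. No library held more than 6.71 counts, so the gene was not tested, and a difference between genotypes was not detectable at this depth.

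Sox9 (chr11:112673009-112678586, forward strand) encodes the factor that switches on the cartilage-like matrix genes of valve mesenchyme. Its level was 5.79, 6.31 and 6.25 in WT hearts, 6.40, 6.29 and 6.10 in KO hearts, 3.71, 3.90 and 2.26 in WT lungs and 3.30, 4.41 and 4.07 in KO lungs. Hearts and lungs were separated by more than 1 log2 unit, and the genotypes overlapped in each tissue. KO minus WT was 0.15 in the heart (-0.39 to 0.69, adjusted p = 0.891, limma) and 0.64 in the lung (-0.67 to 1.95, adjusted p = 0.858), which was 0.13 without lung WT replicate 3. The 4 testable cartilage genes of a list of 8 had a median difference of 1.45 in the lung, all 4 above 0 and none with an unadjusted p under 0.05. Of these, Col2a1 and Col11a1 passed the filter only through WT replicate 1 and KO replicates 2 and 3, which favours a difference above 0. The cartilage list's summed level per kilobase was 4.63 to 38.9 in WT and 11.2 to 87.5 in KO lungs, which overlapped, and its part in the Sox9 values was not tested. Sox9 was called lower in lung than heart, by -2.83 in WT (-3.77 to -1.88, adjusted p = 8.39e-05, limma) and by -2.34 in KO mice (-3.28 to -1.39, adjusted p = 0.000408).

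Vcan (chr13:89803431-89890814, reverse strand) encodes versican, a large proteoglycan that swells the cushion matrix. Its level was 10.49, 10.47 and 9.98 in WT hearts, 10.14, 10.40 and 9.90 in KO hearts, 8.29, 7.64 and 8.32 in WT lungs and 8.29, 7.92 and 8.43 in KO lungs. The KO and WT ranges overlapped in both tissues, with differences of -0.17 in the heart (-0.59 to 0.25, adjusted p = 0.836, limma) and 0.13 in the lung (-0.42 to 0.68, adjusted p = 0.928). Vcan was lower in lung than heart by -2.23 in WT (-2.72 to -1.74, adjusted p = 1.93e-06, limma) and by -1.93 in KO mice (-2.42 to -1.44, adjusted p = 7.27e-06). Whole organs were sequenced, so fewer cells of a type and less RNA per cell cannot be told apart here or for the other genes.

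Postn (chr3:54268501-54298471, forward strand) encodes periostin, a matrix protein that fibroblasts and valve mesenchyme secrete. Its level was 11.07, 11.15 and 9.85 in WT hearts, 11.33, 11.42 and 11.34 in KO hearts, 12.03, 12.04 and 12.70 in WT lungs and 12.12, 11.88 and 12.22 in KO lungs. The 3 KO hearts lay within 0.1 of one another and above the 3 WT hearts, of which replicate 3 was more than 1 log2 unit below the other two. KO minus WT was 0.67 in the heart (95% interval -0.02 to 1.36, unadjusted p = 0.0543, adjusted p = 0.681, limma), and the exact permutation test gave p = 0.10, the smallest that 3 against 3 allows. Without heart WT replicate 3 the difference was 0.25 (adjusted p = 0.592). In the lung the difference was -0.19 (-0.67 to 0.29, adjusted p = 0.882, limma), and lung minus heart in the genotype effect was -0.86 (-1.76 to 0.04, adjusted p = 0.635). Postn was called higher in lung than heart in WT mice, by 1.57 (0.93 to 2.20, adjusted p = 0.000405, limma). The KO mice had a difference of 0.71 (0.07 to 1.34, adjusted p = 0.0476), which was lost in 14 of 21 alternatives, one of them the fit that keeps the mouse as a block (adjusted p = 0.0965).

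**Figure D2:**
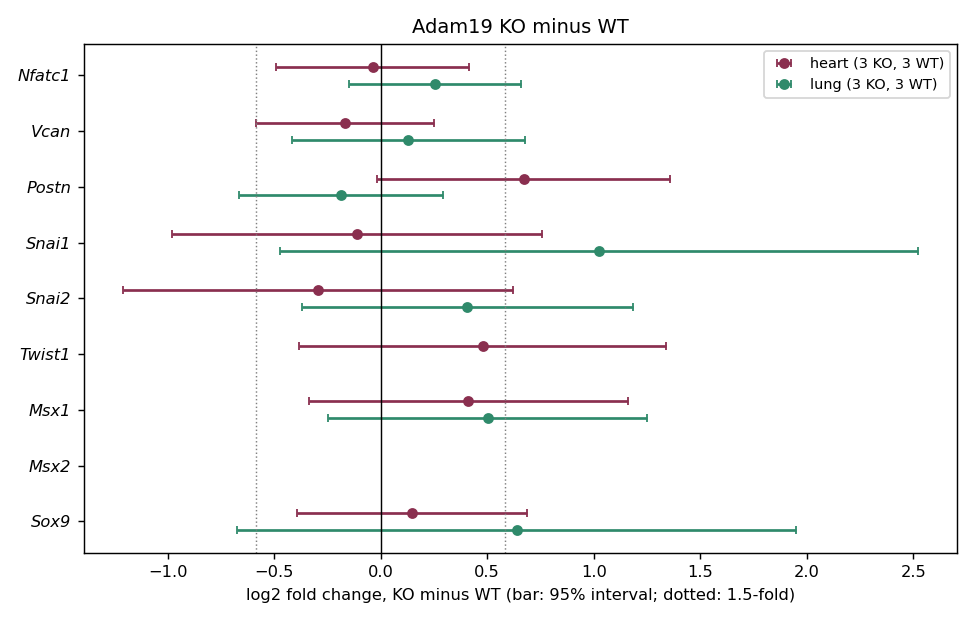
Difference KO minus WT (log2 fold change, horizontal axis) of each gene in heart and lung, with points for the estimate, bars for the 95% interval and dotted lines at a 1.5-fold change. Every interval includes 0, and the nearest to leaving it out is Postn in the heart, from -0.02 to 1.36 (Msx2, and Twist1 in the lung, were not tested).

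Marker genes of other cell types differed between the hearts in which Postn was compared. The summed level per kilobase of 4 smooth muscle genes (Myh11, Acta2, Tagln and Cnn1) was 3611 to 4633 in WT hearts and 6367 to 7622 in KO hearts, with no overlap. All 4 genes had an unadjusted p under 0.05 and none was called, with Tagln at 1.38 (adjusted p = 0.194, limma). The sum of 4 atrial genes was 33195 in WT replicate 3, the heart with the lowest Postn (9.85). It was next lowest, at 74016, in KO replicate 2, the heart with the highest Postn (11.42). The remaining hearts had sums of 107994 to 182969. Of 8 cartilage genes, the sum was 144 to 251 in WT hearts and 308 to 401 in KO hearts, and Matn1 and Matn3 were listed at 0 in all 6. Fibroblast genes had sums of 3800 to 4570 in WT and 4543 to 5171 in KO hearts, which overlapped, and 4 endothelial and endocardial genes had 2854 to 3257 and 3089 to 3477, which overlapped too. The part of these differences in the values of the valve genes was not tested.

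Between the organs, the shares of valve genes called were near those of all genes. In WT mice, 2 of 8 were called higher in lung (Postn and Snai2), where 29.3% of 17666 genes were called higher, and 2 were called lower (Vcan and Sox9), where 20.1% were called lower. In KO mice 3 were higher (Postn, Snai1 and Snai2) against 28.7% of all genes, and 2 were lower (Vcan and Sox9) against 20.9%. The deposited values put the median of all genes 0.32 higher in lung than heart in WT mice and 0.29 higher in KO mice. With TMM scaling of the same counts these medians were 0.09 and 0.04, and the split of calls in WT mice moved from 5179 higher and 3547 lower to 4307 higher and 4356 lower. In KO mice the split moved from 5076 and 3685 to 4175 and 4493. Under TMM the 5 genes' differences in WT mice were -2.47 for Vcan, -3.03 for Sox9, 1.32 for Postn, 1.07 for Snai2 and 0.57 for Snai1. In KO mice they were -2.18, -2.56, 0.46, 1.74 and 1.66, and the Postn difference no longer passed (adjusted p = 0.17, limma).

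**Figure D3:**
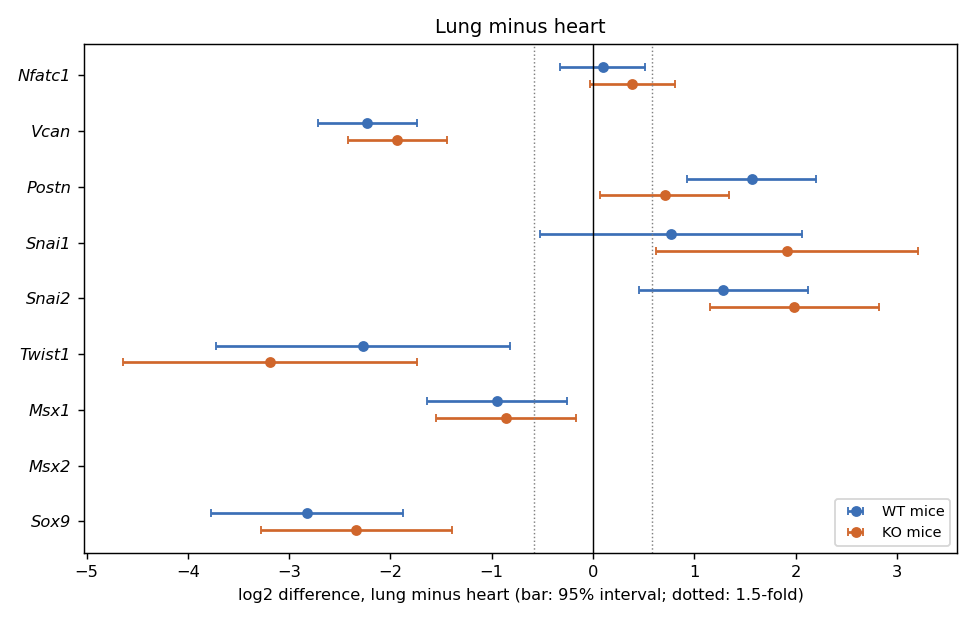
Difference lung minus heart (log2, horizontal axis) of each gene in the 3 WT and the 3 KO mice, with points for the estimate, bars for the 95% interval and dotted lines at a 1.5-fold change. Sox9, Twist1, Vcan and Msx1 lie to the left of 0 in both genotypes, and Nfatc1, Postn, Snai1 and Snai2 to the right, although in WT mice Nfatc1 was at -0.15 with TMM scaling and Snai1 at -0.17 with quantile normalization. Twist1 passed the filter only through the hearts, which favours a place left of 0.

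The isoforms of the 3 abundant genes were also compared, as the share of a gene's estimated counts given to each transcript. Of 9 isoforms with a mean share of at least 10% in a tissue, 6 differed between lung and heart in an exact paired permutation test over the 6 mice. Each of these 6 moved the same way in 6 of 6 mice, which gives an exact p = 0.03125, the smallest that 6 pairs allow, and an adjusted p of 0.0469. The shares of one gene add up to the whole, so its isoforms are not independent. The adjusted p counts them as separate tests. Shares per kilobase of transcript moved 5 of the 6 the same way in every mouse, but with an adjusted p of 0.0563 none was called. No share was tested for a genotype effect across many genes, and 3 mice against 3 cannot go below 0.10.

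Postn differed most. Its transcripts are known to vary near the end of the coding sequence, and the main isoforms differ in a pair of cassette exons that keep the reading frame, shown here because the shares turn on them. Exon 17 (chr3:54287833-54287913, 81 nucleotides, 27 codons) is in Postn-203 and absent from Postn-204, and exon 21 (chr3:54293092-54293175, 84 nucleotides, 28 codons) is in Postn-201 and absent from Postn-204. Exons are counted in the annotated transcript with the most exons, and the sequences are those of the GRCm39 forward strand.
Postn exon 17: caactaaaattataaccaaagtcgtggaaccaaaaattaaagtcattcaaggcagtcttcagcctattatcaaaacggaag
Postn exon 21: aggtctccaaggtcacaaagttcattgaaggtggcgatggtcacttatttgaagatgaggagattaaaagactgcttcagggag

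Postn-204, which lacks both exons, held 95.2%, 95.1% and 92.1% of the Postn counts in WT lungs and 92.4%, 93.2% and 91.0% in KO lungs. In the hearts it held 16.8%, 0% and 59.6% in WT and 65.8%, 24.9% and 53.4% in KO mice. The lungs were alike, whereas the hearts were spread over a wide range without reaching the lungs, at a mean of 36.7% ± 26.6 against 93.1% ± 1.70 (SD, n = 6). Postn-203 held 31.1% ± 15.8 in hearts and 1.99% ± 0.713 in lungs, and Postn-201 held 29.5% ± 11.3 and 2.14% ± 0.819. Neither overlapped between the organs. The WT and KO hearts overlapped for all 3 isoforms (exact permutation p = 0.30 for Postn-204). Since these isoforms share most of their sequence, the estimate divides most reads among them, and the 0% in WT heart replicate 2 is a listed value and not a measured absence.

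Vcan has 2 long exons for its glycosaminoglycan attachment regions, exon 7 (chr13:89851037-89853916, 2880 nucleotides, 960 codons) and exon 8 (chr13:89836404-89841620, 5217 nucleotides, 1739 codons). Vcan-203 holds both, as the isoform known as V0 does, and Vcan-206 joins exon 6 straight to exon 8, as V1 does. The junctions are shown because they are what separates the isoforms, with 20 bases of exon 6 in lower case and the first 20 of the next exon in capitals, on the reverse strand of GRCm39.
Vcan exon 6 to exon 7: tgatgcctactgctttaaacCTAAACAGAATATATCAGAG
Vcan exon 6 to exon 8: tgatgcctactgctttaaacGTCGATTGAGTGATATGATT

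Vcan-206 held 66.6%, 53.6% and 69.5% of the Vcan counts in WT hearts, 68.9%, 65.9% and 65.7% in KO hearts, 58.5%, 39.6% and 48.4% in WT lungs and 46.7%, 48.7% and 51.5% in KO lungs. Vcan-203 held 33.2% ± 6.38 in hearts and 46.1% ± 8.85 in lungs (SD, n = 6). In every mouse the lung had less Vcan-206 and more Vcan-203 than the heart, although the ranges of the organs overlapped. Per kilobase, the Vcan-203 difference did not hold in every mouse (exact permutation p = 0.125, adjusted p = 0.141).

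Nfatc1-201, a form with 8 exons and a shorter coding sequence (2109 nucleotides), held 22.3%, 25.1% and 25.3% of the Nfatc1 counts in WT hearts, 21.5%, 23.4% and 25.6% in KO hearts, 32.7%, 28.7% and 37.4% in WT lungs and 28.5%, 25.9% and 34.7% in KO lungs. All 6 lungs were above all 6 hearts. The other forms with a share of at least 10% have 10 exons. Of these, Nfatc1-205 held 40.4% ± 6.63 in hearts and 34.8% ± 5.93 in lungs (SD, n = 6; exact paired permutation p = 0.25, adjusted p = 0.25). Its share was 34.7%, 35.8% and 36.1% in WT hearts and 52.4%, 42.4% and 41.0% in KO hearts, without overlap (exact permutation p = 0.10). In the lungs the genotypes overlapped. This lack of overlap is only described. Nfatc1-203 and Nfatc1-204, which differ in their first exon, had 27.3% ± 15.5 and 6.40% ± 10.4 in hearts and 4.74% ± 11.6 and 28.5% ± 14.8 in lungs. They were listed at 0 in several libraries and did not pass the test (exact permutation p = 0.0625 for each, adjusted p = 0.0703).

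**Figure D4:**
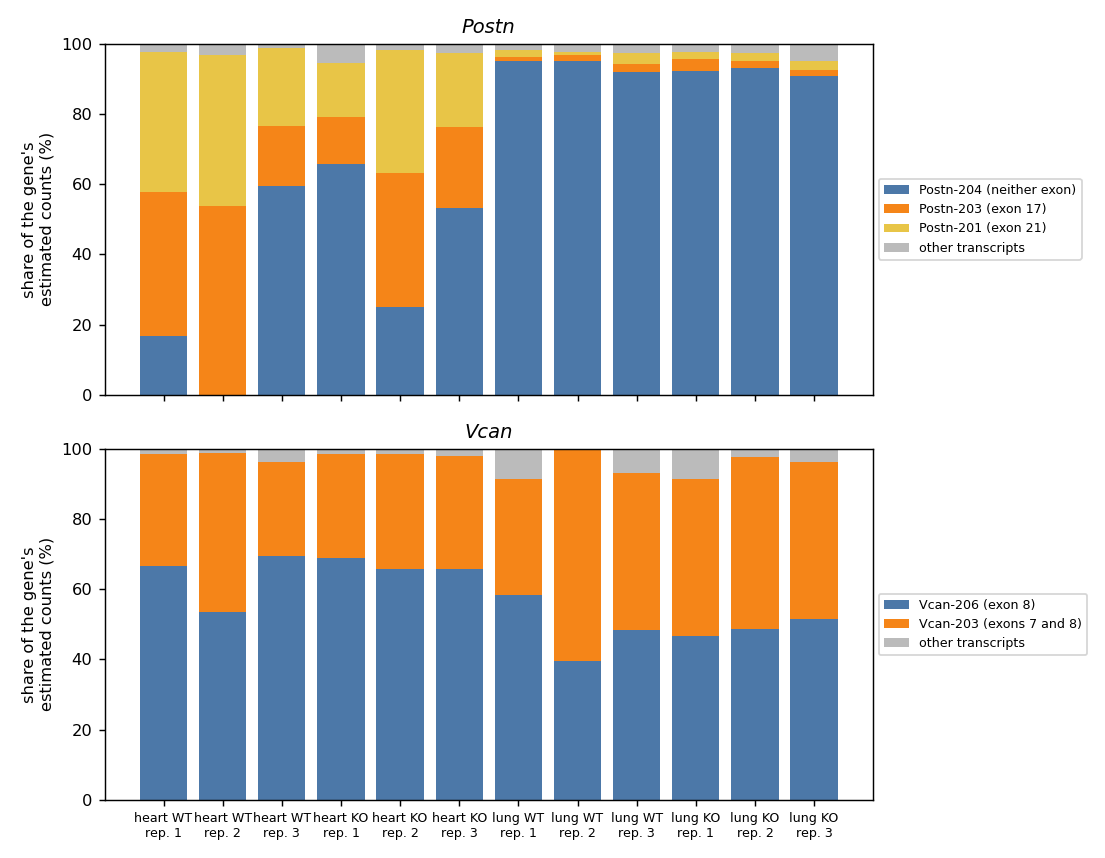
Share of the estimated counts of Postn (upper) and Vcan (lower) given to each isoform (percent, vertical axis, stacked) in each of the 12 libraries. Postn-204 takes 91.0% to 95.2% in the 6 lungs and 0% to 65.8% in the 6 hearts, and in every mouse Vcan-206 takes less in the lung than it does in the heart.

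The genes around these 9 in cushion formation were taken from 4 lists. No gene of any list was called between KO and WT in either tissue, in the limma test, and the counts at an unadjusted p under 0.05 are given with each, to be read beside the 7.46% of all genes in the heart and 5.93% in the lung. Among 21 signals and receptors, all tested, 4 had such a p in the heart and 1 in the lung, and the median log2 fold changes were 0.13 and 0.08. The 3 largest differences in the heart were those of Vegfa, an endothelial growth factor, at -0.58 (-0.99 to -0.18, adjusted p = 0.558), Bmp2, a cushion-inducing signal, at 0.54 (adjusted p = 0.67), and Bmp6, a related BMP, at 0.35 (adjusted p = 0.647). Vegfa was at 11.78, 11.76 and 12.13 in WT hearts and 11.35, 11.59 and 10.98 in KO hearts, which did not overlap. Bmp2 was at 5.36, 5.60 and 5.58 in WT hearts and 6.20, 6.06 and 5.91 in KO hearts, also without overlap. Both genes were picked for a large difference in the heart, which favours a lack of overlap.

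Of the 8 partners of Nfatc1 in calcineurin and NFAT signalling, 0 had an unadjusted p under 0.05 in the heart and 0 in the lung, and the medians were -0.17 and 0.09. The largest differences in the heart were -0.27 for Nfatc3, a related NFAT factor, -0.27 for Rcan1 and -0.20 for Rcan2, both inhibitors of calcineurin. Their adjusted p lay between 0.752 and 0.778 (limma).

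Among 30 further transcription factors, 5 of 30 tested in the heart and 3 of 28 in the lung had an unadjusted p under 0.05, with medians of 0.03 and -0.05. The largest differences in the heart were 0.89 for Smad6, an inhibitor of BMP signalling (adjusted p = 0.385, limma), 0.81 for Foxc1, a forkhead factor (adjusted p = 0.378), and 0.76 for Tbx2, a T-box repressor of the muscle programme in the cushion region (adjusted p = 0.378). Tbx2 was at 6.73, 6.79 and 7.04 in WT hearts and 7.69, 7.54 and 7.61 in KO hearts. Smad6 was at 8.16, 8.04 and 8.41 against 9.29, 8.65 and 9.35, and Foxc1 at 7.44, 7.85 and 7.59 against 8.64, 8.16 and 8.53. None of these 3 genes overlapped between the genotypes in the heart. They were picked for their large differences there, which favours a lack of overlap. In the lung their differences were -0.13, 0.15 and -0.07.

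Among 26 matrix genes, 3 of 24 tested in the heart and 1 of 26 in the lung had an unadjusted p under 0.05, with medians of 0.14 and 0.12. Acan, the cartilage proteoglycan aggrecan, which valves also hold, was at 3.67, 4.20 and 3.95 in WT hearts and 5.92, 7.59 and 5.62 in KO hearts. The groups did not overlap, which the choice of the largest differences favours. The difference was 2.44 (1.30 to 3.57, adjusted p = 0.29, limma). Acan is also one of the 8 cartilage markers, whose sum differed between these hearts as given above. Tnc, the matrix protein tenascin C, was at 5.91, 6.13 and 5.40 against 6.65, 8.15 and 7.01 (1.46, adjusted p = 0.481, limma). Col1a2, a chain of type I collagen, differed by 0.30 (adjusted p = 0.66, limma).

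**Figure D5:**
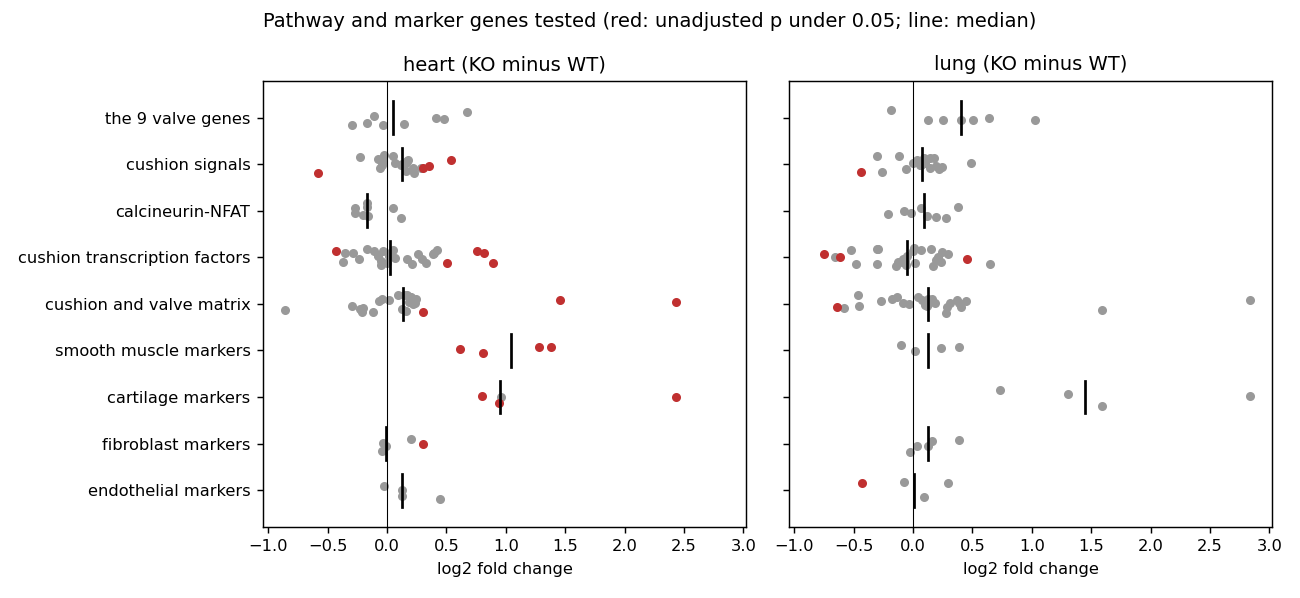
Difference KO minus WT (log2 fold change, horizontal axis) of every tested gene of each list in the heart (left) and the lung (right), with red points for an unadjusted p under 0.05 and a line at the list's median. No list gene was called, the smooth muscle markers lie to the right of 0 in the heart, and their median is 1.04.

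Between the organs the lists are given on the deposited scale alone, and differences between lists were not tested. Among the signals and receptors, 15 of 21 were called higher in the WT lung and 1 lower, beside 29.3% and 20.1% of all genes. Bmp4, at 2.82, and Bmpr2, a BMP receptor, at 2.04, were the furthest, and Bmpr1a, another BMP receptor, was the one lower, at -0.68. Of the calcineurin and NFAT genes 2 were higher and 4 lower, with Rcan2 at -3.96 and Nfatc2 at -2.87. Among the transcription factors 9 were higher and 12 lower, from Gata4, a cardiac zinc finger factor, at -6.87 to Tbx2 at 4.68. Of the matrix genes 8 were higher and 5 lower, from the proteoglycan Lum at -3.30 to the brain proteoglycan Bcan at 5.91. Bcan was at 3.13, 2.45 and 0 in WT hearts and at 7.86, 7.83 and 7.63 in WT lungs. Bcan passed the filter only through the lungs, which favours a difference above 0, and the listed 0 lowers its WT heart mean. In KO mice the numbers higher and lower were 14 and 1, 3 and 3, 9 and 13, and 8 and 5.

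For the 6 valve genes with a group mean of at least 6, the genes closest in pattern were sought among 10289 genes at 6 or more in every library, by the Pearson correlation of deviations from the 4 group means over the 12 libraries. Among the closest to Nfatc1 were Ddi2 (r = 0.98) and Ppm1l (0.96), and the closest to Postn were Atp9b (0.96), Stk26 (0.96) and Mtmr2 (0.95). Snai1 came closest to Arhgdia (0.99), Stk40 (0.99) and Supt5 (0.98), with lung WT replicate 3 the point furthest from the rest. Snai2 was closest to Igip (0.98), 0610030E20Rik (0.97) and Ttbk2 (0.96), Sox9 to Kifbp (0.95), Micall1 (0.92) and Paox (0.92), and Vcan to Cyrib (0.88), Lyplal1 (0.85) and Zfp759 (0.85). These are the highest of many values over few libraries that share depth and scaling.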

How the data were processed

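Strand-specific total RNA libraries were made from the whole heart and lung of 3 WT and 3 KO mice. Per the labels and the paper's methods, the authors trimmed reads with cutadapt and quantified GENCODE transcripts of mm39 with STAR and Salmon, and tested genes with limma, for which the labels and the methods give different versions. The deposited transcript values are log2(1 + estimated count). The deposited gene values are on a log2 scale too, with a constant added for each library (-0.63 to 0.80) and zeros kept at 0. The constant was read from genes with 1 transcript and high values. At low values it held for only 13.6% to 38.8% of such genes in a library. How transcripts were combined into genes is not given in the sources used here. The total of estimated counts was 17674788 to 35862932 per library.

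Genotypes were compared within each tissue, and tissues and their interaction in 1 model of 4 group means, with lmFit and eBayes with a variance trend (limma 3.58.1, R 4.3.3) on the deposited log2 values, with the filter and thresholds of the report. Each fit ran over all genes, on log2 values with 1 added to the counts, which can understate low genes. The constants differ between libraries and zeros do not carry them, so differences of low genes can also be shifted in either direction. The alternatives included limma-voom and a trimmed-mean (TMM) scaling written for this purpose. The test was tested on simulated data before use. Replicate numbers pair the lung and heart of one mouse through the animal identifiers. The deviations of the 2 tissues of a mouse from their group means correlated at 0.05, 0.14 and -0.02 in the WT mice, and at 0.02, -0.07 and -0.04 in the KO mice. Replicates are separate mice.

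The members and gene lists were chosen with earlier results of these data known. The rule for names took all 9 genes and, from each of 4 pathway lists, genes called between genotypes, or else the 3 with the largest difference in the heart at a group mean of at least 6. It also took the 3 genes closest in pattern to a member with a group mean of at least 6, of which 1 is not reported here. Marker lists were summed. Coordinates, exons and sequences come from GENCODE vM39, a later release for the assembly of the files. Some transcripts of the members have a newer version there, and lengths are those of vM39.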

Additional observations from a re-analysis of the deposited data

How the results depend on the processing

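No valve gene was called between genotypes in any of the 224 values recomputed under other filters, scalings, tests or with 1 library left out, nor was a difference of that effect between tissues in 166. The calls for Vcan and Sox9 in both genotypes, for Postn in WT mice and for Snai2 in KO mice held under all alternatives run. In KO mice the Snai1 call was lost under quantile normalization (1.11, adjusted p = 0.147, limma), and the other lost calls stand in the report. The cause was not tested. Small differences changed sign. With 1 library left out, KO minus WT in the heart ranged from -0.19 to 0.132 for Nfatc1 (above 0 without WT replicate 2, WT replicate 3 or KO replicate 3), from -0.33 to 0.159 for Snai1 (without WT replicate 3 or KO replicate 3), from -0.498 to 0.0303 for Snai2 (without WT replicate 2), and from -0.0149 to 0.244 for Sox9 (below 0 without WT replicate 1), which was -0.000953 under quantile normalization. In the lung the range was -0.0919 to 0.277 for Vcan (below 0 without WT replicate 2), which was -0.0127 with summed transcripts, and -0.302 to 0.0354 for Postn (above 0 without WT replicate 3). For the tissue difference of that effect the range was -0.174 to 0.309 for Msx1 (below 0 without heart WT replicate 3, heart KO replicate 2, lung WT replicate 3 or lung KO replicate 3), and -0.0213 to 0.808 for Sox9 (below 0 without lung WT replicate 3). Lung minus heart of Nfatc1 in WT mice ranged from -0.0563 to 0.217 (below 0 without heart WT replicate 1 or lung WT replicate 2), and was -0.149 with TMM and -0.144 with limma-voom. That of Snai1 was -0.172 under quantile normalization.

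The number of genes called between genotypes in the heart was 7 with at least 10 counts asked of every library, and 10 to 21 with 1 library left out, with 21 without heart KO replicate 2. In the lung it was 1 with that filter, and 10 to 14 with 1 library left out. For the tissue difference of the genotype effect it was 4 with plus 10 in place of plus 1, 2 with limma-voom, 4 without a variance trend, and 0 to 6 with 1 library left out. Pairing the tissues of a mouse as a block gave 2 there, with Postn's call between the organs in KO mice lost (adjusted p = 0.0965, limma), and changed no other call of a valve gene. Isoforms called fell from 6 to 0 as shares per kilobase, and 0 were called with any 1 mouse left out, since 5 pairs cannot pass. Without the pairing 8 were called. Between 12.9 and 28.8 counts stand behind a heart value of Snai1 and 11.8 to 32.3 behind one of Snai2, which limits the precision of both.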

Other observations

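The Nfatc1 transcripts were also grouped by where they begin, a grouping chosen after the data were seen. Nfatc1 is known to have alternative promoters and first exons. Transcripts that begin in the upstream first exon held 0%, 0% and 14.1% of the Nfatc1 counts in WT hearts, 24.3%, 0% and 10.3% in KO hearts, 0%, 27.5% and 35.9% in WT lungs and 37.5%, 39.4% and 34.2% in KO lungs. The share was higher in the lung in 5 of 6 mice and at 0 in both tissues of WT mouse 1 (exact paired permutation test, p = 0.0625). Grouping the Postn transcripts by exon gave 32.1% ± 15.1 of counts with exon 17 in hearts and 1.99% ± 0.713 in lungs, and 30.5% ± 10.4 and 2.14% ± 0.819 with exon 21 (SD, n = 6).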
